A study of Mus musculus with 4 samples.

Results

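The genes described here are 39 markers of macrophages, monocytes, neutrophils and lymphocytes, read in libraries made from lung endothelial cells. They were chosen by name for the cell type they are known to mark, and all 39 are among the 17915 coding genes of the deposited table. The mice had the genotype Cdh5-CreER;aSMA-LSL-Dre;NR1, with CreER, a tamoxifen-inducible recombinase, driven by the endothelial gene Cdh5 and Dre, another recombinase, by the alpha smooth muscle actin gene. Endothelial cells were ZsGreen+ in this design, and those in which the actin gene had been active, however briefly, were tdTomato+. All of them had been given tamoxifen 5 times and had undergone transverse aortic constriction, a narrowing of the aorta, 6 weeks before. Bulk RNA was sequenced from 2 tdTomato+ and 2 ZsGreen+ samples, labelled as biological replicates 1 and 2 of each. No unlabelled cells and no mice without constriction are among the libraries, and the labels do not describe the isolation of the cells. The labels do not say whether replicates came from separate mice, so a p-value here reflects only how far these 4 samples vary, which may be technical.

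Leukocytes carry surface, lysosomal and signalling genes that endothelium is not known to use at a high level. Alveolar macrophages live in the airspace and clear particles and surfactant, interstitial macrophages and monocytes lie in and along the lung capillaries, and neutrophils and lymphocytes pass through or stay in the capillary bed. Several of the markers have other known sources in the lung: lysozyme (Lyz2) is also made by alveolar type 2 cells, cathepsin K (Ctsk) by fibroblasts, galectin 3 (Lgals3) by epithelium, and the mannose receptor (Mrc1) by lymphatic endothelium. In bulk RNA, a smaller number of cells of a type and less RNA per cell cannot be told apart.

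Promoter sequence is shown for 3 markers whose levels went together across the libraries, Lyz2 and the complement genes C1qb and C1qc, and for Marco, which stood apart from them. Each run holds the 250 bases before the annotated start, read 5′ to 3′ on the minus strand on which all 4 genes lie, from RefSeq on GRCm38.p6. For C1qc the deposited table places the gene's start further upstream, so that 22 bases of the run lie inside its gene. Capitals mark AGGAAGT or its reverse complement ACTTCCT, letters that the transcription factor PU.1, encoded by the marker Spi1, and other ETS factors are known to bind. These letters occurred on either strand before the start of 12 of the 30 markers matched in the table, or 40.0%, and of 2377 of all 27025 genes in it, or 8.8%. The 12 include Chil3, Ptprc, Ly6c2 and Mrc1 besides the 3 shown, and Marco held no match. Cd68 and Laptm5, whose levels went with Lyz2 across the libraries, held no match either. For 9 markers, among them C1qa, Adgre1, Tyrobp and Spi1, no promoter entry was found. A match is a description of the letters only.
Lyz2 (chr10:117282273-117282522): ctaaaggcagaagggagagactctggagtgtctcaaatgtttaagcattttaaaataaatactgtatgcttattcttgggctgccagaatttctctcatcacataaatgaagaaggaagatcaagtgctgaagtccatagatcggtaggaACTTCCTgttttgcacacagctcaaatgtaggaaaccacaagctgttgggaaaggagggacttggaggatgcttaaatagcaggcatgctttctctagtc
C1qb (chr4:136886201-136886450): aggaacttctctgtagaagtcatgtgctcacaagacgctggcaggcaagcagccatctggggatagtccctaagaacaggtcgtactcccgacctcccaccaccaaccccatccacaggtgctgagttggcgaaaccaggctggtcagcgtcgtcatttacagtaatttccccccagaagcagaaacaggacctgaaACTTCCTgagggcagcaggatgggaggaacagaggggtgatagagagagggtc
C1qc (chr4:136892915-136893164): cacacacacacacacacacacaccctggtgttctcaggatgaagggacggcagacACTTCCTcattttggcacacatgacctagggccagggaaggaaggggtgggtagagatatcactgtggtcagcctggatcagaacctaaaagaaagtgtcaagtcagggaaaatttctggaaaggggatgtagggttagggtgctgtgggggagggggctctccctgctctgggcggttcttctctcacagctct
Marco (chr1:120505025-120505274): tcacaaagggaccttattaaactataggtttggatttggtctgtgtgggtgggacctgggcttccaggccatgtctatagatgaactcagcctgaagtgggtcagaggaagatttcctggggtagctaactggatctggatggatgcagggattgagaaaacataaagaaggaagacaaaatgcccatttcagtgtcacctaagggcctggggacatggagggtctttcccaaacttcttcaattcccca

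Endothelial RNA was level between the libraries as a sum and less even gene by gene. The 13 endothelial genes compared, among them Cdh5, Kdr and Tie1, summed to 11504 and 11583 TPM (transcript abundance scaled for gene length and library size) in tdTomato+ replicates 1 and 2 and to 12518 and 12393 TPM in ZsGreen+ replicates 1 and 2. The highest of these sums was 1.09 times the lowest, but single genes varied from 1.1 times for Pecam1 to 2.14 times for Cldn5. Cldn5, a protein of endothelial tight junctions, stood at 538 and 669 TPM in tdTomato+ cells against 817 and 1154 TPM in ZsGreen+ cells (log2 fold change -0.84, SE 0.22, edgeR adjusted p = 0.272), and Cdh5, the cadherin of endothelial junctions, at 772 and 453 TPM against 839 and 600.0 TPM. Pecam1, an adhesion protein of endothelial junctions that some leukocytes also carry, stood at 986, 912, 900 and 977 TPM in the same order of libraries. Libraries held between 17050673 and 18574737 counts, so that 1 count was worth 0.0538 to 0.0586 CPM, the count scaled to library size alone.

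Leukocyte marker RNA was far less even. The 39 markers summed to 12488 and 6079 TPM in tdTomato+ replicates 1 and 2 and to 5967 and 1693 TPM in ZsGreen+ replicates 1 and 2, which is 1.25%, 0.608%, 0.597% and 0.169% of each library. The sum was thus highest in tdTomato+ replicate 1, lowest in ZsGreen+ replicate 2 and close between the other libraries of the groups, with 7.38 times as much in the highest as in the lowest. Lyz2, the lysozyme of macrophages and neutrophils, made up 59.2%, 57.3%, 56.8% and 49.3% of these sums. It ranked number 3 among all genes by TPM in tdTomato+ replicate 1 and number 215 in ZsGreen+ replicate 2. Without it the sums were 5091, 2598, 2578 and 858 TPM, in the same order of libraries. Set against Pecam1, the macrophage antigen Cd68 stood at 25.9% and 15% of its TPM in tdTomato+ cells and at 14.4% and 3.76% in ZsGreen+ cells.

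**Figure D1:**
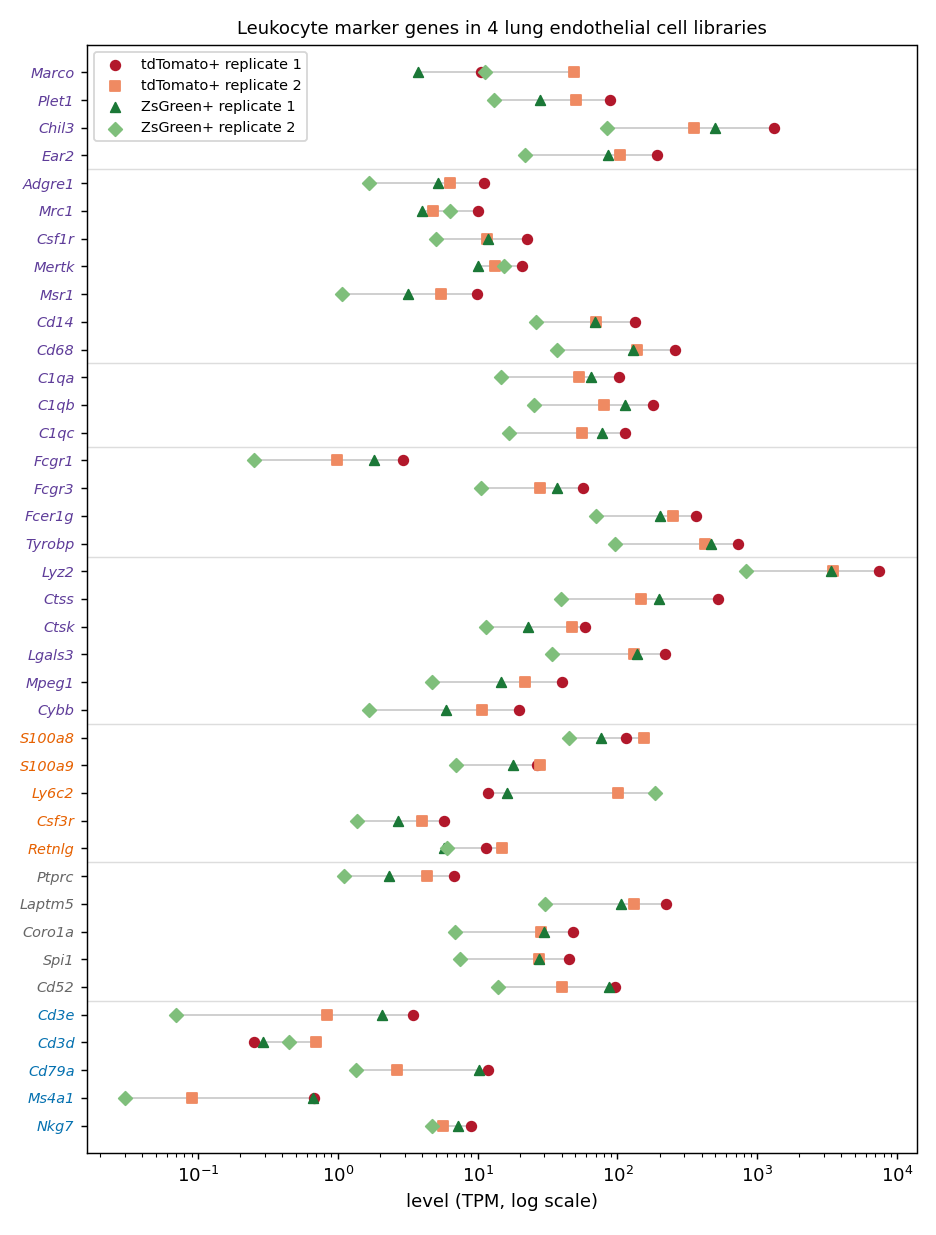
Level of each of the 39 leukocyte markers in the 4 libraries, in TPM on a log axis; gene names are purple for mononuclear phagocyte, orange for neutrophil and monocyte, grey for pan-leukocyte and blue for lymphocyte markers. tdTomato+ replicate 1 is highest and ZsGreen+ replicate 2 lowest for most genes, with Marco, Ly6c2, Mrc1, Mertk and the S100 genes as visible exceptions.

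Of the 38 markers tested, 33 were highest in tdTomato+ replicate 1 and 33 were lowest in ZsGreen+ replicate 2, and 31 were both. Among all 13177 genes tested, 37.0% were highest in the former library and 22.0% lowest in the latter. The marker not tested, Cd3d, a chain of the T cell receptor complex, had at most 8 counts in a library and did not pass the filter on low counts.

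Alveolar macrophage markers split into those that followed this order and Marco, which did not. Chil3, a chitinase-like lectin secreted by alveolar macrophages, stood at 1311 and 352 TPM in tdTomato+ cells and at 498 and 83.7 TPM in ZsGreen+ cells. Ear2, an eosinophil-associated ribonuclease known from alveolar macrophages, stood at 191 and 104 TPM against 85.6 and 21.7 TPM, and Plet1, a surface protein of alveolar macrophages and some epithelium, at 87.9 and 50.5 TPM against 27.8 and 13.1 TPM. For Ear2 and Plet1 both tdTomato+ libraries lay above both ZsGreen+ libraries, and for Chil3 ZsGreen+ replicate 1 lay above tdTomato+ replicate 2. Marco, a scavenger receptor for inhaled particles, stood at 10.6 and 49.1 TPM in tdTomato+ replicates 1 and 2 and at 3.77 and 11.3 TPM in ZsGreen+ replicates 1 and 2. It was higher in replicate 2 of both groups, 4.59-fold and 2.96-fold on the TPM + 0.1 scale, while Chil3 was 3.73-fold and 5.94-fold higher in replicate 1. Marco spans chr1:120474538-120505024 and its counts, from 79 to 1051 per library, are whole numbers.

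Receptors and antigens shared by macrophages and monocytes mostly followed the order of Lyz2. Cd68, a lysosomal membrane glycoprotein, stood at 256 and 137 TPM in tdTomato+ cells and at 130 and 36.7 TPM in ZsGreen+ cells. Cd14, the co-receptor for bacterial lipopolysaccharide, stood at 134 and 69.7 TPM against 68.9 and 26.1 TPM, where tdTomato+ replicate 2 and ZsGreen+ replicate 1 nearly coincided, and the groups overlapped in CPM. The scavenger receptor Msr1 and Adgre1, the macrophage antigen F4/80, were lower, at 9.97 and 5.48 against 3.15 and 1.07 TPM for Msr1. Adgre1 stood at 11.1 and 6.29 TPM against 5.23 and 1.67 TPM. Csf1r, the receptor for macrophage colony-stimulating factor, stood at 22.5 and 11.7 TPM against 11.8 and 5.03 TPM. Mrc1 and Mertk, a receptor for the uptake of dying cells that endothelium also carries, differed from these: Mrc1 stood at 10.1 and 4.82 TPM against 4.01 and 6.3 TPM, and Mertk at 20.8 and 13.4 TPM against 10.1 and 15.4 TPM. For both, ZsGreen+ replicate 2 was the second highest library rather than the lowest.

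The 3 chains of complement C1q, a recognition molecule made by tissue macrophages, moved as a unit. C1qa stood at 102 and 53.3 TPM in tdTomato+ cells and at 64.2 and 14.8 TPM in ZsGreen+ cells. C1qb stood at 180.0 and 79.8 TPM against 113 and 25.2 TPM, and C1qc at 113 and 55.3 TPM against 77.3 and 16.8 TPM. All 3 put ZsGreen+ replicate 1 above tdTomato+ replicate 2, so the groups overlapped. The ratio of C1qb to C1qa in TPM was 1.76, 1.5, 1.75 and 1.71 over the libraries and that of C1qc to C1qa 1.11, 1.04, 1.2 and 1.14. The genes lie side by side on chromosome 4 of GRCm38, from C1qb at 136880126 to 136886200 to C1qa at 136895916 to 136898844.

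Immunoglobulin receptors and their adaptors were likewise highest in tdTomato+ replicate 1 and lowest in ZsGreen+ replicate 2. Tyrobp, the signalling adaptor DAP12 of myeloid and natural killer cells, stood at 733 and 423 TPM in tdTomato+ cells and at 463 and 95.7 TPM in ZsGreen+ cells. Fcer1g, the common gamma chain of Fc receptors, stood at 363 and 248 TPM against 202 and 70.7 TPM. Fcgr3, a low-affinity receptor for IgG, stood at 56.7 and 27.8 TPM against 36.8 and 10.5 TPM, and Fcgr1, the high-affinity receptor, lay at or under 2.91 TPM in every library. Of these 4, only Fcer1g had both tdTomato+ libraries above both ZsGreen+ libraries.

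Lysosomal and antimicrobial effectors held the most abundant marker. Lyz2 stood at 7397 and 3482 TPM in tdTomato+ cells and at 3389 and 835 TPM in ZsGreen+ cells, or 5439 ± 2768 against 2112 ± 1806 TPM (SD, n = 2). Ctss, the cathepsin of antigen-presenting cells, stood at 521 and 148 TPM against 199 and 39.7 TPM, and Ctsk at 58.1 and 47.6 TPM against 22.8 and 11.5 TPM. These neighbouring genes on chromosome 3 differed in the order of libraries, since Ctss put ZsGreen+ replicate 1 above tdTomato+ replicate 2 and Ctsk did not. Cybb, the catalytic subunit of the phagocyte oxidase, stood at 19.6 and 10.7 TPM against 5.96 and 1.66 TPM, and Mpeg1, a pore-forming protein of phagocytes, at 40.4 and 21.9 TPM against 14.7 and 4.74 TPM. Lgals3 stood at 218 and 132 TPM against 138 and 33.9 TPM. All 6 effectors were highest in tdTomato+ replicate 1 and lowest in ZsGreen+ replicate 2.

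Of the 4 neutrophil markers, S100a8, S100a9 and Retnlg were highest in tdTomato+ replicate 2, and Csf3r in tdTomato+ replicate 1 as most macrophage markers were. S100a8, a calcium-binding protein abundant in neutrophils, stood at 116 and 156 TPM in tdTomato+ replicates 1 and 2 and at 76.3 and 45.3 TPM in ZsGreen+ replicates 1 and 2, so that tdTomato+ replicate 2 was the highest. S100a9, its partner, stood at 26.6 and 27.7 TPM against 17.9 and 7.01 TPM, and Retnlg, a resistin-like protein of neutrophils, at 11.5 and 15 TPM against 5.75 and 6.02 TPM. Csf3r, the receptor for granulocyte colony-stimulating factor, stood at 5.72 and 4.03 TPM against 2.69 and 1.38 TPM. These 4 had both tdTomato+ libraries above both ZsGreen+ libraries. S100a8 per Cd68 was 45.4% and 58.7% of its TPM in tdTomato+ and ZsGreen+ replicate 1 and 114% and 123% in replicate 2 of each. Ly6g, a defining neutrophil surface antigen and no member of the set, had at most 0.57 TPM. Most further neutrophil genes outside the set did not share the order of S100a8. Of the 7 tested, 4 were highest in tdTomato+ replicate 1, 2 in tdTomato+ replicate 2 and 1 in ZsGreen+ replicate 1. Among them Hdc stood at 11.6 and 11.4 TPM in tdTomato+ cells against 5.63 and 3.96 TPM in ZsGreen+ cells.

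Ly6c2, a surface antigen of inflammatory monocytes, had the reverse pattern, at 11.8 and 101 TPM in tdTomato+ replicates 1 and 2 and at 16.2 and 184 TPM in ZsGreen+ replicates 1 and 2. It was 8.47-fold and 11.3-fold higher in replicate 2 of the groups on the TPM + 0.1 scale. Its near-identical neighbour Ly6c1, which lung endothelium is known to express, stood at 2473 and 2589 TPM in tdTomato+ cells and at 3635 and 4065 TPM in ZsGreen+ cells. Ly6c2 was 0.478% and 3.91% of Ly6c1 in tdTomato+ cells and 0.447% and 4.53% in ZsGreen+ cells, and its counts are not whole. With which genes its reads were shared is not given, so its level is uncertain. Lyz2 has such a copy too, Lyz1, but there the ratio of Lyz2 to Lyz1 in TPM was steady at 12.8, 14.2, 13 and 12.8.

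The coding stretches below show how alike these copies are, with capitals at the bases that differ within a pair. They come from GENCODE M21 transcripts on GRCm38, are read 5′ to 3′, and each is the 90-base stretch with the most differences. The stretch covers coding bases 43 to 132 for Lyz2 and Lyz1 and 1 to 90 for Ly6c2 and Ly6c1, counted from the start codon. Over the whole coding sequence without its stop codon, Lyz2 and Lyz1 differed at 22 of 444 bases with an identical run of up to 118 bases, and Ly6c2 and Ly6c1 at 9 of 393 with a run of up to 188 bases.
Lyz2: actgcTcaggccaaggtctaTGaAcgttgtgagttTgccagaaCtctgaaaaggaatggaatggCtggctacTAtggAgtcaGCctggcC
Lyz1: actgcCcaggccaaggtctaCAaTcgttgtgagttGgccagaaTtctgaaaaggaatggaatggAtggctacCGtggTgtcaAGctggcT
Ly6c2: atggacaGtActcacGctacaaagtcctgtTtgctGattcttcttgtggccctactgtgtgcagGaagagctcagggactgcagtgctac
Ly6c1: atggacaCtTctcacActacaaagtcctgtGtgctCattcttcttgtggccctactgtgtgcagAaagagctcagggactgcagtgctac

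The 5 markers grouped here as pan-leukocyte followed the macrophage order. Ptprc, the phosphatase CD45 that defines leukocytes, lay at 6.8 and 4.33 TPM in tdTomato+ cells and at 2.32 and 1.11 TPM in ZsGreen+ cells, from 377, 263, 136 and 64 counts. This was 0.69% and 0.475% of Pecam1 against 0.258% and 0.114%. Laptm5, a lysosomal protein of blood cells, stood at 224 and 131 TPM against 106 and 30.3 TPM, and Cd52, a small surface glycoprotein of lymphocytes and myeloid cells, at 95.3 and 39.8 TPM against 86.4 and 13.9 TPM. Cd52 differed from the other pan-leukocyte markers in that ZsGreen+ replicate 1 came close to the highest library. Spi1 and Coro1a, a coronin of the leukocyte cytoskeleton, lay between 6.92 and 48.0 TPM with tdTomato+ replicate 2 and ZsGreen+ replicate 1 almost equal.

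Lymphocyte markers were low and separated the replicate numbers more than the groups. Cd79a, the signalling chain of the B cell receptor, stood at 11.9 and 2.67 TPM in tdTomato+ replicates 1 and 2 and at 10.2 and 1.35 TPM in ZsGreen+ replicates 1 and 2. Ms4a1, the B cell antigen CD20, had 21 and 3 counts against 22 and 1 counts, and Cd3e, a chain of the T cell receptor complex, 49 and 13 against 32 and 1 counts. Nkg7, a granule protein of natural killer and cytotoxic T cells, stood at 9.02 and 5.66 TPM against 7.18 and 4.73 TPM. All 4 tested markers overlapped between the groups and were higher in replicate 1 of both. Cd3d, not tested, went the other way from Cd3e, with 3 and 8 counts in tdTomato+ cells against 4 and 6 in ZsGreen+ cells. With this few reads, differences between single libraries in Ms4a1, Cd3e and Cd3d are limited by counting.

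**Figure D2:**
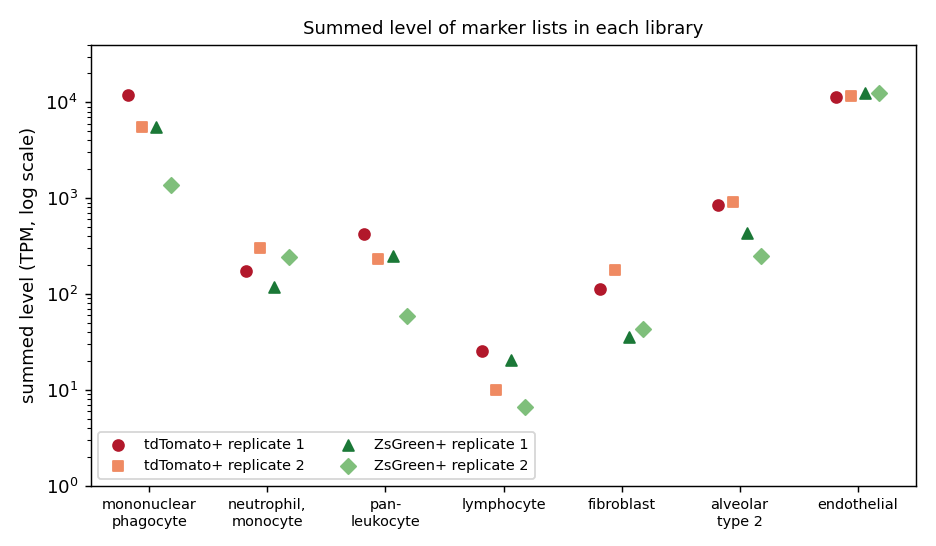
Summed TPM of marker lists in each library on a log axis, for 4 groups of leukocyte markers and for 3 lists of other lung cell types. Mononuclear phagocyte, pan-leukocyte and lymphocyte sums are highest in tdTomato+ replicate 1 and lowest in ZsGreen+ replicate 2, fibroblast and alveolar type 2 sums are higher in both tdTomato+ libraries, and endothelial sums are level although single endothelial genes are not.

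Libraries of 1 group differed widely from each other. The median of replicate 1 over replicate 2 for the 24 mononuclear phagocyte markers was 0.89 on the log2 scale (TPM + 0.1) in tdTomato+ cells and 1.79 in ZsGreen+ cells, beside 0.07 and -0.22 over all genes tested. For the neutrophil and monocyte markers it was -0.38 and 0.75, and for the lymphocyte markers tested 1.98 and 2.69. Replicate 1 lay above replicate 2 in both groups for 31 of 38 markers, against 22.2% of all genes tested, and by at least 2-fold in both for 11 markers, against 1.57%. These 11 were Chil3, Ctss, Lyz2, C1qb, C1qc, Fcgr1, Fcgr3, Cd52, Cd3e, Cd79a and Ms4a1. Replicate 2 lay at least 2-fold above replicate 1 in both groups for Marco and Ly6c2 alone among the markers, and for 1.62% of all genes tested. With 1 library against 1 these differences carry no test.

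**Figure D3:**
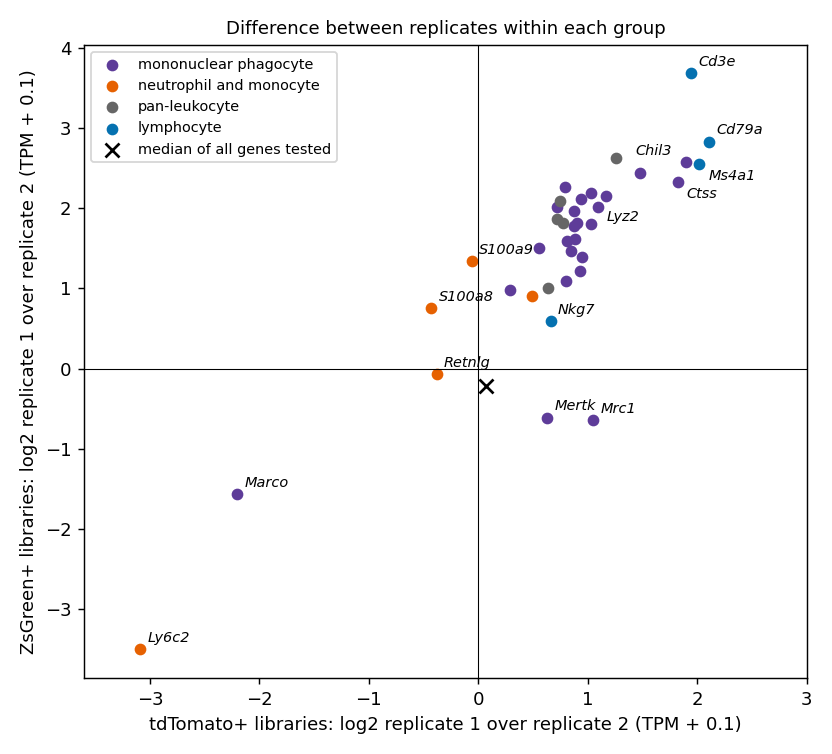
Difference between replicate 1 and replicate 2 within the tdTomato+ libraries (horizontal axis) and within the ZsGreen+ libraries (vertical axis) for the 38 markers tested, as log2 ratios of TPM + 0.1; the cross is the median of all genes tested. Most markers lie in the upper right, Mrc1 and Mertk in the lower right, S100a8 and S100a9 in the upper left, and Marco and Ly6c2 far to the lower left.

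Whether markers of 1 cell type moved together was read from their level per unit of Cd68, a measure chosen after the values were seen. For 18 of the 23 other mononuclear phagocyte markers, the highest ratio to Cd68 over the 4 libraries was under 2 times the lowest. Cd68 itself spanned 6.96-fold. The same count over all genes was not made. Adgre1 varied least, at 0.0434, 0.0459, 0.0402 and 0.0455 TPM per TPM of Cd68, followed by Lgals3 and C1qa, whose highest ratios were 1.24 and 1.27 times their lowest. Laptm5, Spi1 and Coro1a of the pan-leukocyte markers varied by 1.17, 1.2 and 1.22 times, Ptprc by 1.77 times and Cd52 by 2.29 times. The mononuclear phagocyte markers beyond 2-fold were Fcgr1 (2.03 times), Chil3 (2.25 times), Mertk (5.41 times), Mrc1 (5.56 times) and Marco (12.3 times). Chil3 per Cd68 was 5.13 and 3.83 in tdTomato+ and ZsGreen+ replicate 1 and 2.56 and 2.28 in replicate 2 of each. Ctss per Cd68 was likewise 2.04 and 1.53 in replicate 1 and 1.08 and 1.08 in replicate 2. Mertk and Mrc1 per Cd68 stood out in ZsGreen+ replicate 2, at 0.42 and 0.171 against at most 0.0975 and 0.0396 elsewhere. Cd68 itself was lowest in that library, at 36.7 TPM. Mertk and Mrc1 stood there at 15.4 and 6.3 TPM, below their 20.8 and 10.1 TPM in tdTomato+ replicate 1. Marco per Cd68 was 0.0415 and 0.029 in replicate 1 and 0.358 and 0.309 in replicate 2.

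**Figure D4:**
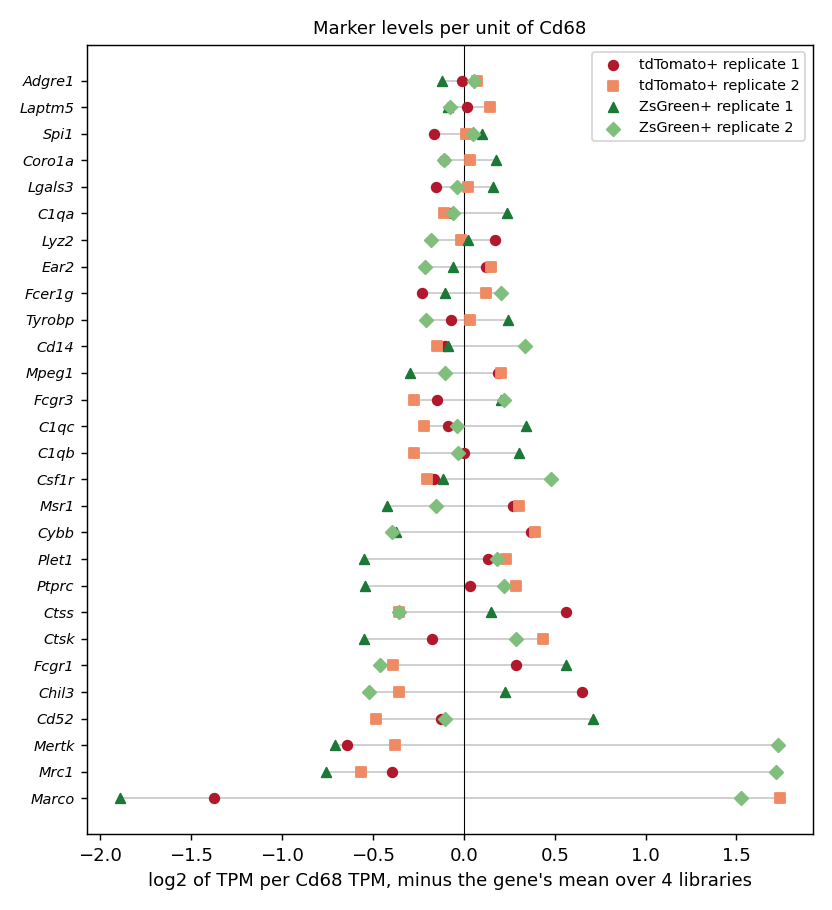
TPM of each marker divided by the TPM of Cd68 in the same library, as log2 minus the marker's mean over the 4 libraries, for mononuclear phagocyte and pan-leukocyte markers sorted by their spread. Markers from Adgre1 to Ctsk stay within 2-fold, Mertk and Mrc1 have ZsGreen+ replicate 2 far to the right, and Marco has both replicate 2 libraries to the right.

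No leukocyte marker passed edgeR's adjusted test between tdTomato+ and ZsGreen+ cells in the main fit, which took no account of replicate numbers. Of the 38 tested, 36 had a fold change above 1 in tdTomato+ cells, as 49.3% of all genes tested did, and 0 passed edgeR's quasi-likelihood test at an adjusted p of 0.05, where 0.304% of all genes tested passed. The median log2 fold change of the 38 was 0.89, beside -0.01 over all genes tested. At an unadjusted edgeR p under 0.05 there were 7 markers, all higher in tdTomato+ cells, or 18.4%, and 5.62% of all genes tested were higher at that p. They were Ctsk (log2 fold change 1.42, SE 0.40), Plet1 (1.55, SE 0.45), Ptprc (1.52, SE 0.47), Cybb (1.77, SE 0.62), Msr1 (1.58, SE 0.57), Marco (1.90, SE 0.74) and Mpeg1 (1.46, SE 0.57), with edgeR adjusted p from 0.292 to 0.521. Lyz2 had a log2 fold change of 1.11 (SE 0.68, edgeR adjusted p = 0.767). DESeq2 called 2 markers, Plet1 (1.53, adjusted p = 0.0141) and Ctsk (1.41, adjusted p = 0.0204), among 330 genes.

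Both tdTomato+ libraries lay above both ZsGreen+ libraries in TPM for 17 of the 38 markers, or 44.7%, and the reverse held for 0. Over all genes tested these shares were 28.8% and 8.17%, so TPM tilts toward the tdTomato+ libraries as a whole. In CPM scaled by TMM, edgeR's correction for composition, the count was 14 markers and 19.9% of all genes tested, since Lyz2, Cd68 and Cd14 then overlapped. By cell type the median log2 fold change was 0.96 for mononuclear phagocyte, 0.94 for neutrophil and monocyte, 0.81 for pan-leukocyte and 0.08 for lymphocyte markers tested. Neither Cd79a (0.06, SE 1.02) nor Nkg7 (0.10, SE 0.54) lay further than its error from 0.

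**Figure D5:**
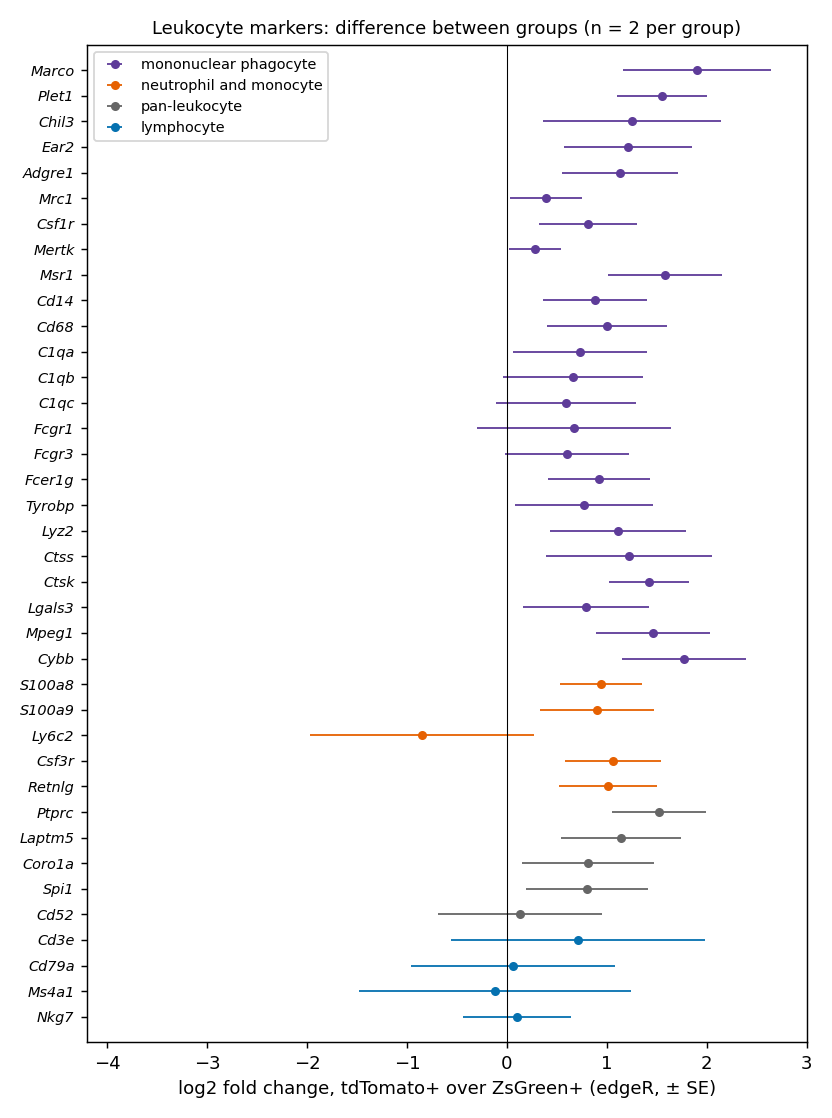
Log2 fold change of tdTomato+ over ZsGreen+ libraries from edgeR with its standard error for the 38 markers tested, n = 2 per group. Most points lie to the right of 0 with wide errors, none passed the adjusted test, and Ly6c2 at -0.85 and Ms4a1 at -0.12 lie to the left.

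Single libraries set the size of this difference. Without ZsGreen+ replicate 1 the median edgeR log2 fold change of the markers was 2.33, beside 0.01 over all genes tested in that fit. Without ZsGreen+ replicate 2 it was 0.34, beside 0.04. Without tdTomato+ replicate 1 it was 0.43, beside -0.02, and without tdTomato+ replicate 2 it was 1.15, beside 0.01. In each of these fits the group left with 1 library is assumed to vary like the other. The C1q chains lay at -0.03, -0.10 and -0.17 for C1qa, C1qb and C1qc without ZsGreen+ replicate 2, against 2.35, 2.32 and 2.29 without ZsGreen+ replicate 1.

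Further leukocyte genes that are not among the 39 differed by cell type. Of 87 genes on lists of macrophages, monocytes, neutrophils, dendritic cells, lymphocytes, granulocytes and platelets, 63 were tested. Of these, 44 had a fold change above 1, where 49.3% of all genes tested did, and 0 passed edgeR's adjusted test. At an unadjusted edgeR p under 0.05 there were 7, close to the 8.77% of all genes tested. Their median log2 fold change as a whole was 0.48 over the 63. The median was 1.12 for alveolar macrophage, 1.02 for neutrophil, 0.85 for interstitial macrophage and 0.78 for B and plasma cell genes. It was 0.23 for dendritic cell, 0.19 for monocyte, -0.04 for T and natural killer cell and -0.13 for platelet genes. The monocyte genes tested were split, with 4 above a fold change of 1 and 3 below. Ccr2 stood at 2.35 and 1.74 TPM in tdTomato+ cells against 0.91 and 0.2 TPM in ZsGreen+ cells (1.68, SE 0.76, edgeR adjusted p = 0.61). Gngt2 stood far higher, at 535 and 529 TPM against 651 and 606 TPM (-0.39, SE 0.19). The alveolar macrophage keratin Krt79 had the smallest p, at 9.0 and 5.69 TPM in tdTomato+ cells against 1.35 and 1.38 TPM in ZsGreen+ cells (2.26, SE 0.42, edgeR adjusted p = 0.126). Siglecf, the lectin that defines alveolar macrophages and eosinophils, stood at 10.9 and 3.98 TPM against 4.27 and 1.35 TPM, in the order of Chil3. Mcoln3, a lysosomal channel from the alveolar macrophage list named like Siglecf after its values were seen, shared the pattern of Marco at 0.68 and 3.39 TPM against 0.45 and 1.18 TPM. Its counts were low, at 16 and 103 against 12 and 30. Most of the 12 genes of that list went the other way, with replicate 1 higher for 10 in tdTomato+ cells and for 9 in ZsGreen+ cells. T cell antigens Cd4 and Cd8a lay at or under 0.31 TPM, but some other genes of the T and natural killer cell list were higher. Cd2 stood at 17.7 and 8.03 TPM in tdTomato+ cells against 3.96 and 3.37 TPM in ZsGreen+ cells. Lck stood at 8.68 and 8.14 TPM against 5.34 and 5.54 TPM. Of the 7 genes of that list tested, 3 had a fold change above 1 and 4 below. The 6 mast cell, basophil and eosinophil genes summed to at most 1.01 TPM and none passed the filter. Cpa3, Ms4a2 and Epx among them had 0 counts in all 4 libraries, which allows up to 0.176 CPM in the shallowest.

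Markers of other lung cells also differed in level between the groups. The 9 alveolar type 2 genes summed to 841 and 915 TPM in tdTomato+ cells and to 438 and 252 TPM in ZsGreen+ cells, and the 9 fibroblast genes to 114 and 180 TPM against 35.9 and 42.9 TPM. All 9 genes of each list had a fold change above 1 and 0 passed edgeR's adjusted test, with 4 alveolar type 2 and 6 fibroblast genes at an unadjusted p under 0.05, where 8.77% of all genes tested were. The 5 erythroid genes summed to 81.0 and 133 TPM against 115 and 159 TPM, and the 4 of them tested had a fold change below 1, a median log2 fold change of -0.48 and no adjusted call, with 0 at an unadjusted p under 0.05. Unlike the macrophage sum, which was 11871, 5534, 5575 and 1382 TPM, the alveolar type 2 and fibroblast sums did not overlap between the groups, and fibroblast sums were higher in replicate 2 of both. Their part in the leukocyte differences was not tested.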

How the data were processed

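RNA of the 4 libraries was amplified over the whole transcriptome before library preparation, per the labels' protocols, which can add spread between libraries. RSEM 1.3.1, DESeq2 1.4.5 and the builds mm10 and GRCm38 are named in the submitters' processing notes, with no role given; no source used here names the aligner or the strand setting. The authors deposited estimated counts per gene, 16.2% to 17.9% of them not whole, and TPM values. Sample titles gave the group and replicate number.

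Counts were rounded, filtered (filterByExpr, minimum count 10, leaving 13177 genes), TMM-scaled and tested with edgeR 4.0.16 under R 4.3.3 by its two-sided quasi-likelihood F-test, with Benjamini-Hochberg adjustment over all genes tested and a threshold of 0.05. The test was tried on simulated data first, with the spread between replicates set by the trend over all genes. Among genes of at least 5 CPM it called 34% of those changed 2-fold and 94% of those changed 4-fold. Reads of near-identical copies (Lyz2 and Lyz1, Ly6c2 and Ly6c1, Chil3 and Chil4, Ear2 and Ear1) may be split between them, so these levels are uncertain. An exact permutation of 2 against 2 libraries cannot go below p = 0.333, so none is given. TPM served for levels, with 0.1 added for ratios between libraries. Floors from 0 counts cover counting error only.

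The 39 markers, their grouping by cell type and the further lists were chosen with earlier results of these data known. All markers could be named; of the further lists, up to 3 genes each, ranked by p among those averaging 1 TPM or more, could be, and Siglecf, Mcoln3, Ly6g, Cd4 and Cd8a were named after their values were seen. Alternatives were other size factors, DESeq2 1.42.0, no filter, limma 3.58.1 on log2 TPM, leaving out each library and a replicate block. Gene spans are printed where the table and RefSeq on GRCm38.p6 give the same one; promoter runs follow RefSeq's start.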

Additional observations from a re-analysis of the deposited data

How the results depend on the processing

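With n = 2 per group, 1 library can set a value. The number of markers called higher was 0 with RLE size factors, without a filter and with limma on log2 of TPM plus 1 or plus 0.1. Of all genes tested, 41, 128, 18 and 23 were called in these fits. With DESeq2 it was 2, among 330 of 13500 genes. The number called lower was 0 in all of these. Leaving out 1 library moved the median log2 fold change from 0.34 to 2.33 over all markers tested, from 0.40 to 2.35 for mononuclear phagocyte, from 0.09 to 2.30 for pan-leukocyte, from 0.55 to 1.57 for neutrophil and monocyte and from -0.95 to 2.90 for lymphocyte markers. On TPM the median of all genes tested was 0.12 and 0.15 with a pseudocount of 1 and 0.1, against -0.01 in the counts, and that of the markers 1.21 and 1.3.

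The replicate numbers do not show that libraries were paired, since no label says what a number stands for, although same-numbered libraries deviated together over genes (correlation 0.45). With a replicate block edgeR called 27 markers higher and 1 lower, Ly6c2, among 934 of 13177 genes, and Ms4a1 turned to 0.10. Ms4a1 turned also with limma on TPM, at 0.05 with a pseudocount of 1 and 0.28 with 0.1.

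Single markers that changed direction when 1 library was left out ranged from -0.19 to 0.83 for Mrc1, from -0.04 to 0.56 for Mertk, from -0.03 to 2.35 for C1qa, from -0.10 to 2.32 for C1qb, from -0.17 to 2.29 for C1qc, from -0.26 to 2.90 for Fcgr1, from -0.10 to 1.96 for Fcgr3, from -0.0046 to 2.55 for Tyrobp, from -3.15 to 1.5 for Ly6c2, from -0.70 to 2.23 for Cd52, from -0.59 to 4.79 for Cd3e, from -1.32 to 2.36 for Cd79a, from -2.14 to 3.43 for Ms4a1 and from -0.27 to 0.59 for Nkg7. The cause was not tested.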
